A study of Mus musculus with 10 samples.

Results

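Zfp600 to Zfp999 are mouse zinc finger genes grouped by a series of names and not by descent. They were chosen by name alone, as every gene of the deposited expression matrix whose name is Zfp, a number in that span and at most 1 letter. This gave 168 genes of the 15686 in the matrix and of the 55487 in the count tables. All 168 passed the filter on low counts that left 22596 genes for testing, and none was at 0 counts in a library. Another 17 genes with names of the same form are in the count tables but not in the matrix and were not taken as members. Nuclear RNA was sequenced from HM-1 mouse ES cells and from their derivatives on the way to blood, with 2 libraries at each of 5 stages. The ES stage is the undifferentiated line in serum and LIF. The HB (hemangioblast) stage is FLK1+ cells taken with magnetic beads from embryoid bodies after 3 days without LIF. HE1 (KIT+ TIE2+ CD41-) and HE2 (KIT+ TIE2+ CD41+) are hemogenic endothelium before and after CD41 appears, and HP (KIT+ TIE2- CD41+) are hemopoietic progenitors, all sorted by flow cytometry from blast cultures of the HB cells. All stages derive from a single ES line, which the study describes as a targeting line, and the sample titles name no targeted gene. The study describes the replicates of a stage as biologically independent, which the labels do not state. The p-values measure the spread between these libraries.

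Most zinc finger proteins of this kind bind DNA through an array of fingers, each of which reads a few bases. Many also carry a KRAB domain, which recruits TRIM28 and, through it, the histone methyltransferase SETDB1 and HP1 proteins, so that the bound site is packed into heterochromatin. The best known targets in ES cells and the early embryo are endogenous retroviruses and other transposons, and a cluster on the distal part of chromosome 4 is known for such genes. KRAB zinc finger genes lie in clusters that grew by local duplication, so neighbours are often close copies of each other. Members without a KRAB domain act in other ways, for example as co-repressors, as partners of histone modifiers, or in RNA and ribosome biology.

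Library totals ran from 24920434 to 58782055 counts, and the members together took 0.391% to 0.537% of a library. Levels are given as CPM, counts scaled to library size with TMM, 1 value per library. Log2 CPM of the 2 libraries of a stage correlated across genes at r = 0.994 in ES and r = 0.967 in HE1, with the other stages between. The summed CPM of 5 pluripotency genes (Pou5f1, Nanog, Sox2, Zfp42, Esrrb) was 1998 and 1920.4 in ES, 98.8 and 74.5 in HB, 2.86 and 2.19 in HE2 and 6.05 and 1.4 in HP. In HE1 it was 6.31 in replicate 1 and 67 in replicate 2, so the second HE1 library stood apart. The 5 endothelial markers (Tek, Kit, Cdh5, Sox7, Erg) summed to 2386 and 1314 in HE1, 1515 and 1088 in HE2 and 599 or less in every other library. HE1 replicate 2 also held more of 5 smooth muscle and mesenchyme markers than HE1 replicate 1, 1632 against 828 CPM. The 5 blood markers (Itga2b, Runx1, Spi1, Gfi1b, Myb) summed to 985 or more in each HE2 and HP library and 310.2 or less elsewhere. In bulk samples such as these, fewer cells that express a gene and less RNA per cell cannot be told apart.

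Nearly as many members held a constant level as changed over the 5 stages. A member was called in a comparison of stages at an adjusted p under 0.05 (edgeR quasi-likelihood F test, Benjamini-Hochberg over all tested genes) and a change of at least 2-fold. It counted as changed where the joint test over the 5 stages passed the same adjusted p and its stage means spanned at least 2-fold, and as constant where they spanned less than 2-fold and none of the 10 pairs of stages was called. By this, 80 of 168 members changed (47.6%), against 54.6% of all tested genes, and 78 were constant (46.4%), against 31.3% of all tested genes. The remaining 10 fell between. Of the 15566 tested genes of the matrix, from which the members were chosen, 59.1% changed and 36.3% were constant. Among the 210 other Zfp genes of the matrix, those numbered under 600, 41.4% changed and 55.2% were constant. The highest and lowest stage means of a member differed by a median of 2.08-fold, compared with 2.95-fold over all tested genes and 1.86-fold over the other Zfp genes. The range ran from 1.14-fold for Zfp664 to 629-fold for Zfp936. These stage means are of log2 CPM with a prior count of 2 added, which understates the range of genes near 0 such as Zfp936. ES was the highest stage of 84 members and HB of 37, whereas 14, 13 and 20 were highest in HE1, HE2 and HP. The share highest in ES was 50%, against 34% of all tested genes and 32.4% of the other Zfp genes. Without a cluster of 17 members on chromosome 4, described below, it was 45%.

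**Figure D1:**
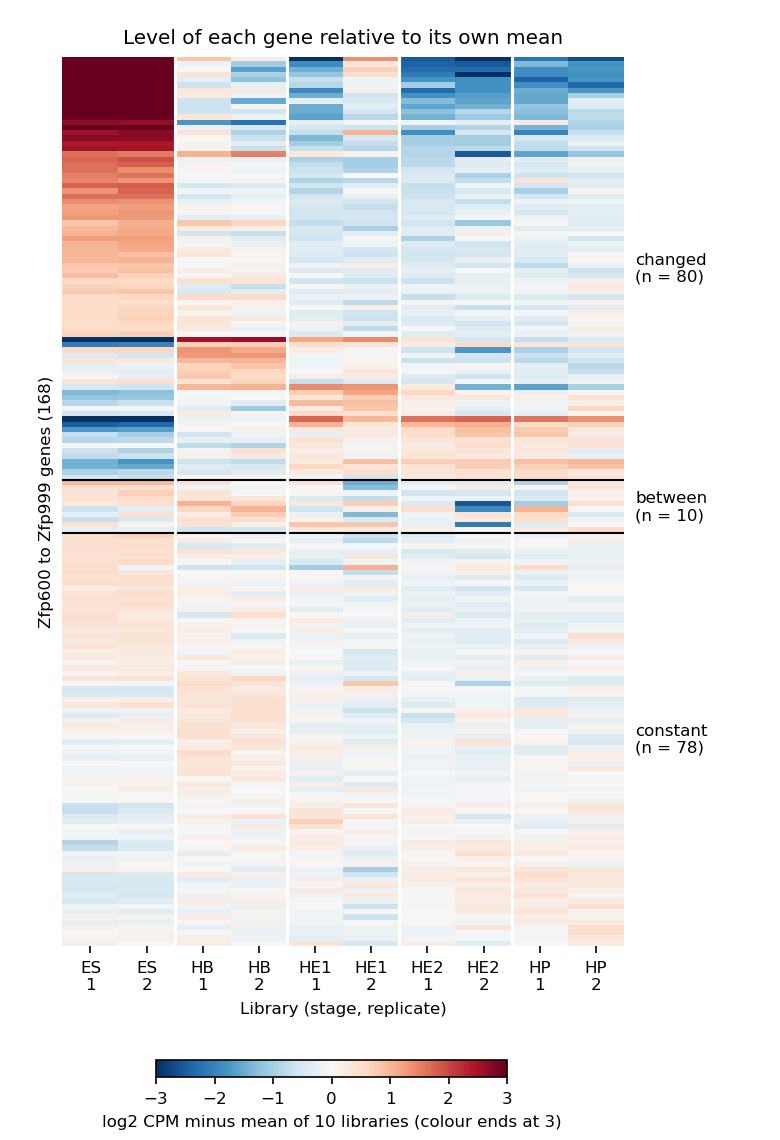
Each row is 1 of the 168 genes and each column 1 of the 10 libraries, and the colour gives log2 CPM minus the gene's mean over the libraries, with the scale ending at 3 in either direction. Rows are grouped as changed (80), between (10) and constant (78) and ordered by the stage of the highest mean, which shows the block of genes that were high in both ES libraries at the top.

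Called against each of the other 4 stages, 33 members were higher in ES (19.6%, against 11.3% of all tested genes) and 8 were lower in ES (5.96% of all tested genes). Zfp703 and Zfp964 were higher in HB than in each other stage, as were 1.9% of all tested genes, and Zfp750 was lower in HB than in each other stage, as were 1.63%. By these calls no member was highest or lowest in HE1 (1.09% and 0.283% of all tested genes), and neither a member nor any other tested gene (0%) was so in HE2 or HP alone. The pattern of Zfp750 was lost without either HB library, HE1 replicate 2, HE2 replicate 1 or HP replicate 1, and that of Zfp964 without HB replicate 2. No member was higher in both HE2 and HP than in each earlier stage (1.78% of all tested genes), and Zfp980 and Zfp600 were lower there than in each earlier stage (1.38%), although both lost their calls against HE1 without HE1 replicate 2. With 9 CPM as a mark of expression, 74 members were at or above it in all 5 stage means, 35 were under it in all, and 22 reached it in ES only. Of the 33 members higher in ES, 16 lie in a single cluster on chromosome 4. Among the other 151 members the share was 11.3%, which is the share of all tested genes.

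The cluster spans chr4:145510759-147848366 (GRCm38) and holds 17 members, from Zfp990 to Zfp933, with 2.31 Mb between the first and the last start. Clusters were taken as runs of at least 3 members with no more than 500 kb between neighbouring starts. Of the 17, 16 fell from ES to HB, with differences from -6.02 to -1.68 on the log2 scale, and each of the 16 was called higher in ES than in all 4 later stages. Among all tested genes 17.3% were lower in HB and 11.3% were higher in ES than in each later stage. The summed CPM of the 17 was 1146 and 1207 in ES and 152 and 126 in HB. It was 87.2 and 112 at HE1, 83.9 and 95.1 at HE2 and 95.7 and 129 at HP. The other 151 members summed to 4297 and 4407 in ES and to between 3771 and 4302 in the 8 later libraries.

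**Figure D2:**
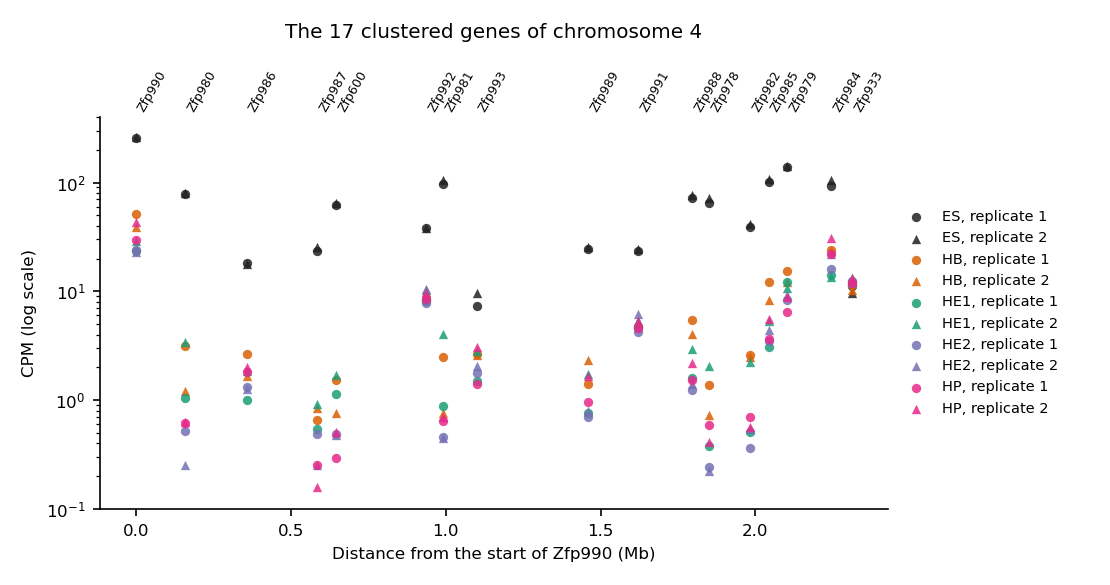
CPM on a log axis of the 17 members of the chromosome 4 cluster in the 10 libraries, against the distance of each gene's start from that of Zfp990 in Mb. Colours mark stages and shapes the 2 replicates, and the ES points lie above all others for each gene but Zfp933 at the right end, whose 10 values lie between 9.7 and 13.1 CPM.

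The promoters of these genes resemble each other. Of the 17, 10 have a promoter window in RefSeq GRCm38.p6 (250 bases before the start and 50 after), 9 of the 16 that changed and Zfp933. The longest stretch that at least 7 of the 9 hold without a mismatch is 21 bases long. The windows of Zfp600 (chr4:146156577-146156876, plus strand), Zfp979 (chr4:147642459-147642758, minus strand) and Zfp988 (chr4:147305354-147305653, plus strand) are shown because they hold the most alike pair and the least alike of the holders, and that of Zfp933 (chr4:147848369-147848668, minus strand) because this neighbour did not change. Each is read 5' to 3' on the gene's strand, and capitals mark the shared stretch.
Zfp600: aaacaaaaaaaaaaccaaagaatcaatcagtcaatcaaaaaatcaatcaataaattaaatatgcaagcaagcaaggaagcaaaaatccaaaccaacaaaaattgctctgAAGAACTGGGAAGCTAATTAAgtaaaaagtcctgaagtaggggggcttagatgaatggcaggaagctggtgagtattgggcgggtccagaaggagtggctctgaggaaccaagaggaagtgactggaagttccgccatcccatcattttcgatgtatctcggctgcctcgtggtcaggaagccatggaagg
Zfp979: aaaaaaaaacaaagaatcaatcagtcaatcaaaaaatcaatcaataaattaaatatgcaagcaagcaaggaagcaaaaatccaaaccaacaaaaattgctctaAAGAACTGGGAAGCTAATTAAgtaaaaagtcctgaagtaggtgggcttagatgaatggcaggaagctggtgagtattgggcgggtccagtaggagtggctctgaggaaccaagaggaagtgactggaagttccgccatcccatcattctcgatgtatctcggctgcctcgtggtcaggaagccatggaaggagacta
Zfp988: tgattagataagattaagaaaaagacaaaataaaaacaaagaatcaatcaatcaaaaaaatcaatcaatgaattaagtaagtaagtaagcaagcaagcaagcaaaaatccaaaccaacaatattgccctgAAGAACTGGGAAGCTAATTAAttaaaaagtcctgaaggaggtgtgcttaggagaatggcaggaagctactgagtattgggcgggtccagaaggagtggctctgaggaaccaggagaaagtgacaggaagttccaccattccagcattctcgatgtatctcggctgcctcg
Zfp933: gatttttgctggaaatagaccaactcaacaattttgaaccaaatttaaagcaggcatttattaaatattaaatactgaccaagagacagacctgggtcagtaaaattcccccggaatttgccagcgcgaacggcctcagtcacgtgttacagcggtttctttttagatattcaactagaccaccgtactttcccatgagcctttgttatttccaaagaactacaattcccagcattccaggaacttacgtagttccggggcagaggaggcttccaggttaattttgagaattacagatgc

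The stretch AAGAACTGGGAAGCTAATTAA is in the windows of Zfp980, Zfp987, Zfp600, Zfp988, Zfp982, Zfp985 and Zfp979. The best match in the windows of Zfp981 and of Zfp984 differs from it at 1 base, and that in the window of Zfp933 at 7. The RefSeq start of Zfp981 lies 12893 bases from the start used for its counts. Searched on both strands, it is in 9 of the 32851 promoter windows of the table (0.0274%), all on chromosome 4. The other 2 holders are Rex2 and Zfp534, which lie between the members and were also higher in ES than in each later stage. Whole windows of the 7 holders were 71.1% to 94.8% identical in pairs, with a median of 82.4%, and that of Zfp600 and Zfp979 was the most alike pair. The window of Zfp933 was 49.6% to 52.2% identical to those of the other 9. Windows of all 9 changed genes hold CCAAT on either strand, compared with 60.3% of member windows and 37.4% of all windows, 8 hold GGGCGG (44.7% and 35.7%), and none holds TATAAA (2.84% and 13.6%). Because the stretch was searched for in promoters of genes known to have changed, its presence there describes these sequences and is not a test.

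Within the cluster the depth of the fall differed widely. Zfp981 (ENSMUSG00000056300, chr4:146502027-146539395, plus strand) was at 96.9 and 106 CPM in the ES libraries, 2.51 and 0.761 at HB, 0.883 and 4.1 at HE1, 0.457 and 0.444 at HE2 and 0.639 and 0.699 at HP. No later library came near the ES values, and the change from ES to HB was -5.97 on the log2 scale (SE 0.63, edgeR adjusted p = 4.68e-05). Zfp978 (chr4:147361303-147391004, plus strand) was at 64.2 and 72.4 CPM in the ES libraries, 1.39 and 0.732 at HB, 0.379 and 2.05 at HE1, 0.244 and 0.222 at HE2 and 0.593 and 0.413 at HP, and changed into HB by -6.02 on the log2 scale (SE 0.56, edgeR adjusted p = 2.03e-05). Zfp600 was at 61.8 and 64.2 CPM in the ES libraries, 1.52 and 0.761 at HB, 1.14 and 1.68 at HE1, 0.488 and 0.476 at HE2 and 0.297 and 0.509 at HP. Its libraries of HE2 and HP lay under all of those of HB and HE1, and it changed from ES to HB by -5.80 on the log2 scale (SE 0.36, edgeR adjusted p = 1.65e-06). Zfp980 had nearly the same course, with 77.6 and 79.7 CPM in the ES libraries, 3.14 and 1.21 at HB, 1.05 and 3.44 at HE1, 0.518 and 0.254 at HE2 and 0.616 and 0.636 at HP.

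At the other end, genes of the cluster kept a measurable level after ES. Zfp990 (ENSMUSG00000078503, chr4:145510759-145539188, plus strand), the first gene of the row, was at 258 and 260.3 CPM in the ES libraries, 51.8 and 39.2 at HB, 23.4 and 29.3 at HE1, 24 and 23.1 at HE2 and 29.5 and 43.4 at HP. It changed into HB by -2.51 on the log2 scale (SE 0.21, edgeR adjusted p = 1.22e-05) and still had the second highest level per kb of exon of all 168 members over the 5 stages. Zfp984 fell from 92.5 and 105 CPM in ES to 24.1 and 23.7 in HB, and Zfp992 from 38.4 and 38.3 to 8.3 and 9.83, with later libraries between 7.77 and 10.5 CPM. The exception was Zfp933 (ENSMUSG00000059423, chr4:147822986-147848366, minus strand), the last gene of the row, which was at 11.2 and 9.7 CPM in the ES libraries, 11.5 and 10.4 at HB, 12.3 and 13.1 at HE1, 12.5 and 12 at HE2 and 12 and 13.1 at HP. Its ES and HB libraries overlapped, and its HB minus ES difference was 0.07 on the log2 scale (SE 0.19, edgeR adjusted p = 0.821).

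Other genes of the interval fell with them. Of 65 other genes of the count tables that start there, 40 were tested, of which 28 were lower in HB (17.3% of all tested genes) and 26 were higher in ES than in each later stage (11.3% of all tested genes). The best expressed of them in ES were Zfp534 with a mean of 71.4 CPM, Gm21411 with 68.6 and Rex2 with 63.5 CPM, named for this level. Reads that map to several places were not counted, and close copies lose such reads. As a measure of this, a median of 46.1% of the 100-base words in the longest coding transcript of a cluster member also occur in a transcript of another gene, compared with 0.0704% for the constant members. The share was 89.6% for Zfp978, 77.9% for Zfp987 and 68.5% for Zfp600, whose levels are therefore uncertain. For Zfp990 it was 1.63%, for Zfp985 1.92%, for Zfp982 2.95% and for Zfp933 0%. The part of such lost reads in the values was not tested.

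Outside this cluster 17 members were higher in ES than in each later stage, on 7 chromosomes. The widest range was that of Zfp936 (ENSMUSG00000064194, chr7:43114229-43192109, plus strand), which was at 84.5 and 87 CPM in the ES libraries, 2.02 and 1.32 at HB, 0.0421 and 3.01 at HE1, 0.152 and 0.0317 at HE2 and 0.205 and 0.127 at HP. The change from ES to HB was -5.69 on the log2 scale (SE 0.82, edgeR adjusted p = 3.50e-04). Both HE2 libraries together held 6 counts of it, so that the ratio of ES to HE2, 916-fold on summed counts, has an exact 95% counting interval from 421 to 2496. The HE1 libraries were far apart, and the higher was replicate 2, the library with more pluripotency transcripts, whose part in this was not tested. Zfp977 and Zfp819, in the same cluster of 8 on chromosome 7 (chr7:42579783-42592547, minus strand and chr7:43607169-43618285, plus strand), behaved alike in ES and HB. Zfp819, reported to repress endogenous retroviruses in pluripotent cells, was at 28.5 and 31.4 CPM in the ES libraries, 1.36 and 0.704 at HB, 1.72 and 1.52 at HE1, 0.823 and 0.667 at HE2 and 0.684 and 1.68 at HP, and changed into HB by -4.87 on the log2 scale (SE 0.45, edgeR adjusted p = 2.07e-05). Zfp977 was at 24.8 and 25.6 CPM in the ES libraries, 1.19 and 1.24 at HB and 0.762 and 1.02 at HE2.

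Zfp750, Zfp951 and Zfp941 lie alone, without a member within 500 kb. Zfp750, a regulator of epidermal differentiation (chr11:121510978-121519333, minus strand), was at 6.9 and 6.66 CPM in the ES libraries, 0.264 and 0.169 at HB, 0.841 and 0.991 at HE1, 0.945 and 0.825 at HE2 and 1.23 and 0.509 at HP, so that it reached its lowest level in HB and then rose into HE1 by 2.08 on the log2 scale (SE 0.54, edgeR adjusted p = 0.0151). Its HB and HE1 libraries did not overlap, though all stayed under 1 CPM. Without HB replicate 2 the difference was 1.74 (edgeR adjusted p = 0.124) and without HE1 replicate 2 1.96 (edgeR adjusted p = 0.0518), so the call was lost in both. Zfp951 (chr5:104813169-104860070, minus strand) was at 8.16 and 9.12 CPM in the ES libraries, 1.82 and 0.676 at HB, 0.799 and 2.84 at HE1, 0.335 and 0.952 at HE2 and 0.297 and 0.827 at HP, with the higher HE1 value again in replicate 2. Zfp941 fell from 18.3 and 19.7 in ES to 6.38 and 6.28 in HB and stayed between 3.27 and 6.24 CPM. A milder course was that of Zfp809, which silences retroviruses that use a proline tRNA primer and is the classical restriction factor of murine leukaemia virus in ES cells. It was at 46.9 and 51 CPM in the ES libraries, 15.4 and 14 at HB, 15.9 and 18.5 at HE1, 18.4 and 25.7 at HE2 and 23.4 and 22.9 at HP, a change into HB of -1.74 on the log2 scale (SE 0.19, edgeR adjusted p = 5.85e-05), and the HE2 and HP libraries lay above those of HB. Zfp932, another repressor of endogenous retroviruses, was at 15.5 and 16 CPM in the ES libraries and 6.55 and 7.38 at HB and between 7.02 and 10.2 CPM later, a change into HB of -1.18 on the log2 scale (SE 0.21, edgeR adjusted p = 0.00133). Zfp708, which binds retrotransposons and protects them from demethylation, was at 4.56 and 4.93 CPM in the ES libraries, 4.5 and 4.37 at HB and 2.52 and 1.98 at HE1. All of its 100-base words are shared with another annotated transcript, so its level is uncertain.

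The members are clustered along the genome as a whole. They lie on 18 chromosomes, 38 of them on chromosome 7 and 24 on chromosome 17. In 16 clusters of 3 or more there were 105 members (62.5%), in 6 pairs 12 members, and 51 stood alone. Clusters differed in what their members did. As a background, 17.3% of all tested genes were lower and 11.5% higher in HB than in ES, and 31.3% were constant. The second in size, 14 genes at chr17:21383748-22867134, had none that was lower in HB than in ES, 1 that was higher (Zfp677), and 6 constant members. In the cluster of 10 on chromosome 13 (from Zfp712 to Zfp738), 7 were constant and 1, Zfp953, was lower in HB. The 9 genes at chr7:127244274-127885996 (Zfp771 to Zfp646) held 6 constant members and 2 that rose into HB, Zfp629 and Zfp768. The cluster of 8 on chromosome 7 with Zfp936 had 4 that fell into HB, and in the small one on chromosome 8 (Zfp709, Zfp882, Zfp617, Zfp961) 3 of 4 did. Zfp961 of this group (chr8:71951038-71993792, plus strand) was at 93.7 and 93.2 CPM in the ES libraries, 30.2 and 32.1 at HB and 25.6 and 27.1 at HE1, a change into HB of -1.59 on the log2 scale (SE 0.15, edgeR adjusted p = 2.67e-05).

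Neighbours within 500 kb had the same highest stage in 49 of 95 adjacent pairs (51.6%), and in 34 of 79 (43%) without the chromosome 4 cluster. Members on different chromosomes shared it in 31.7% of pairs. The same class (changed, between or constant) was held by 46.3% of adjacent pairs and by 36.7% of those outside that cluster. For pairs on different chromosomes, which include its members, the share was 43.6%. These shares describe the genes, which are not independent. Clustered members outside chromosome 4 had a median HB minus ES difference of -0.12 on the log2 scale, with 13 of 88 lower and 4 higher in HB. Members in pairs or alone had a median of 0.11, with 6 of 63 lower and 9 higher. Over all tested genes 17.3% were lower and 11.5% higher, so neither group held a larger share of falls into HB than that. In HE1 against ES, 24 of the 88 clustered members were lower and 4 higher. Of the 63 in pairs or alone, 8 were lower and 10 higher, beside 20.4% and 20.3% of all tested genes.

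Of the steps from stage to stage, HB against ES held the most calls. In all, 35 members were lower in HB (20.8%, against 17.3% of all tested genes) and 13 were higher (7.74%, against 11.5%). Without the chromosome 4 cluster 12.6% were lower. The median difference was -0.12 on the log2 scale for members, 0 for all tested genes and 0.10 for the other Zfp genes.

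**Figure D3:**
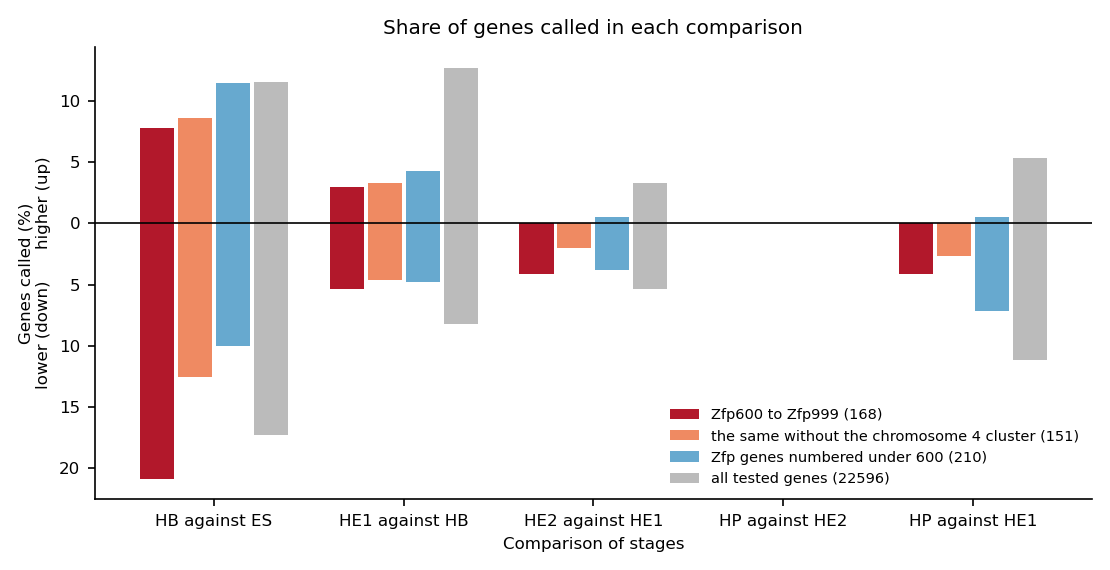
Bars give the percentage of genes called higher (up) and lower (down) in each of the 5 comparisons for the 168 members, for the 151 outside the chromosome 4 cluster, for the 210 Zfp genes numbered under 600 and for all 22596 tested genes. The members pass all tested genes in a single bar, the genes lower in HB than in ES, and fall short of them there once the cluster is left out.

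The 8 members that were lower in ES than in each later stage were Zfp711, Zfp703, Zfp608, Zfp629, Zfp800, Zfp768, Zfp697 and Zfp787. Zfp711, an X-linked protein that binds together with the histone demethylase PHF8 (ENSMUSG00000025529, chrX:112600526-112635070, plus strand), was at 2.54 and 2.75 CPM in the ES libraries, 48.3 and 49.5 at HB, 185 and 112 at HE1, 173 and 190.1 at HE2 and 170.4 and 145 at HP. It rose into HB by 4.21 on the log2 scale (SE 0.25, edgeR adjusted p = 1.29e-06) and again into HE1 by 1.60 on the log2 scale (SE 0.21, edgeR adjusted p = 4.23e-04). The stages ES, HB and HE1 did not overlap, and those after HB did. Zfp608 (chr18:54888048-54992555, minus strand) was at 15.3 and 16.6 CPM in the ES libraries, 92.4 and 84.4 at HB, 173 and 110.4 at HE1, 169.7 and 178 at HE2 and 127 and 138 at HP, a rise into HB of 2.47 on the log2 scale (SE 0.20, edgeR adjusted p = 9.79e-06). Zfp629 (chr7:127607031-127615797, minus strand) was at 6.14 and 6.57 CPM in the ES libraries, 42.9 and 43.2 at HB, 37.3 and 34.9 at HE1, 30.3 and 38.6 at HE2 and 34.4 in both libraries at HP. It rose into HB by 2.76 on the log2 scale (SE 0.17, edgeR adjusted p = 1.60e-06) and then stayed, with all 6 later libraries just under those of HB. Zfp768, in the same cluster, was at 5.23 and 5.51 CPM in the ES libraries, 17.5 and 19.1 at HB and 26.1 and 32.4 at HE2.

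**Figure D4:**
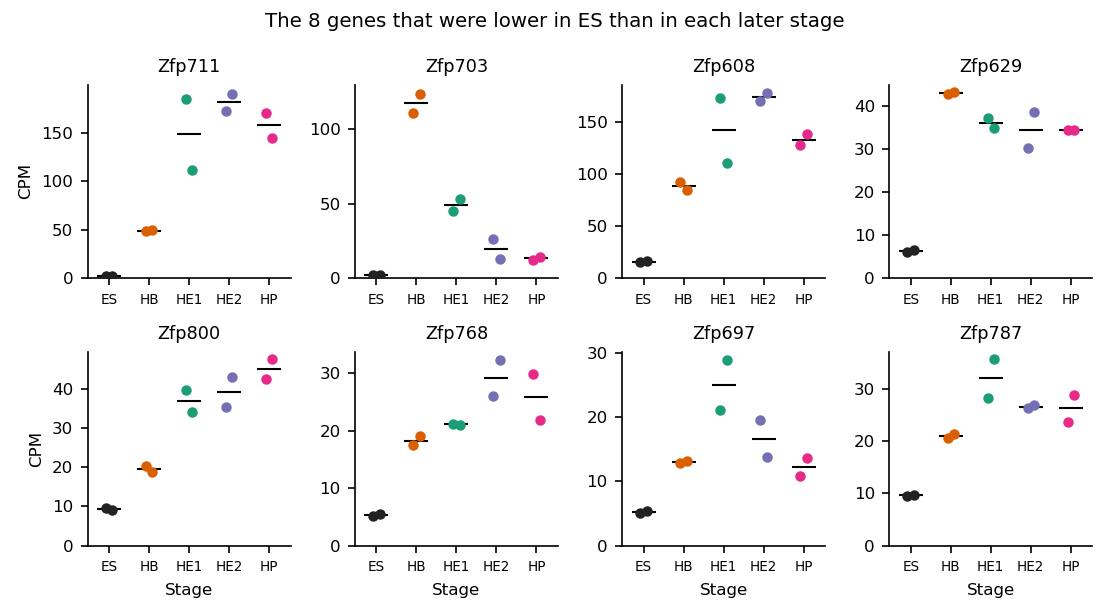
CPM in the 2 libraries of each stage (points) and their mean (line) for the 8 members called lower in ES than in each later stage, with a linear axis from 0 for each gene. Zfp711, Zfp608, Zfp800 and Zfp768 stayed high to HP, whereas Zfp703 was highest in HB at a mean of 117 CPM and fell to 13.3 in HP.

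Zfp703, a co-repressor of the NET family (ENSMUSG00000085795, chr8:26977325-26981461, plus strand), had a course of its own. It was at 1.99 and 2.18 CPM in the ES libraries, 111 and 124 at HB, 45.1 and 53 at HE1, 26.3 and 13.2 at HE2 and 12.2 and 14.4 at HP. The rise into HB, 5.82 on the log2 scale (SE 0.33, edgeR adjusted p = 1.06e-06), had the highest fold of any member, and it changed from HB to HE1 by -1.26 on the log2 scale (SE 0.26, edgeR adjusted p = 0.00541). Zfp964 peaked in HB too, at a lower level: it was at 1.86 and 1.64 CPM in the ES libraries, 6.08 and 6.25 at HB, 2.31 and 2.58 at HE1, 2.25 and 1.62 at HE2 and 1.55 and 1.97 at HP, with a rise of 1.81 on the log2 scale (SE 0.34, edgeR adjusted p = 0.0017) and a change into HE1 of -1.33 on the log2 scale (SE 0.34, edgeR adjusted p = 0.013). Zfp697 was at 5.02 and 5.42 CPM in the ES libraries, 12.8 and 13.2 at HB, 21.2 and 29 at HE1, 19.6 and 13.8 at HE2 and 10.8 and 13.6 at HP. Zfp800 rose in steps, at 9.67 and 8.95 CPM in the ES libraries, 20.3 and 18.6 at HB, 39.7 and 34.1 at HE1, 35.2 and 42.9 at HE2 and 42.5 and 47.4 at HP. Other rises into HB were those of Zfp618, Zfp787, Zfp677, Zfp691 and Zfp647, between 1.01 and 1.56 on the log2 scale. Zfp703, Zfp629, Zfp647 and Zfp697 are also on the study's list of genes linked to enhancers primed before HB. That list was chosen on these samples, so it is no independent evidence of their rise.

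From HB to HE1, the step into hemogenic endothelium, few members were called. There were 5 higher (2.98%, against 12.7% of all tested genes) and 9 lower (5.36%, against 8.19%). Scaled to total counts in place of TMM, the split was 6 higher and 6 lower. Besides Zfp711 and Zfp750, those that rose were Zfp672, Zfp950 and Zfp651. Zfp672 (chr11:58315114-58330339, minus strand) was at 5.46 and 4.3 CPM in the ES libraries, 9.49 and 8.62 at HB, 18 and 27.4 at HE1, 24.6 and 25 at HE2 and 27.7 and 29.2 at HP, with a rise into HE1 of 1.33 on the log2 scale (SE 0.22, edgeR adjusted p = 0.00158). Zfp651 was at 10.9 and 12.5 CPM in the ES libraries, 18.7 and 15.6 at HB, 38 and 37.2 at HE1, 22.2 and 17.6 at HE2 and 17.7 and 22.8 at HP, so that HE1 was its peak, and rose by 1.13 on the log2 scale (SE 0.20, edgeR adjusted p = 0.00196). Those that fell besides Zfp964 and Zfp703 were Zfp612, Zfp985, Zfp811, Zfp940, Zfp930, Zfp988 and Zfp974. Zfp612, with the largest fall, was at 8.73 and 10.6 CPM in the ES libraries, 8.66 and 7.69 at HB, 2.9 and 3.2 at HE1, 3.23 and 2.22 at HE2 and 5.06 and 3.85 at HP, a change of -1.42 on the log2 scale (SE 0.30, edgeR adjusted p = 0.00533). Zfp950, at 10.8 and 6.28 in HB and 16.1 and 24.1 in HE1, lost its call without HB replicate 2 or HE1 replicate 2, as did Zfp750. Zfp651, Zfp964 and Zfp974 lost theirs without HB replicate 2, Zfp672 without HE1 replicate 2, Zfp974 without HE1 replicate 1, and Zfp985 and Zfp988 without HB replicate 1 or HE1 replicate 1. On the log2 scale Zfp651 then stood at 0.97 in place of 1.13, Zfp672 at 0.9996 in place of 1.33 and Zfp964 at -1.35 in place of -1.33. Zfp974 stood at -1.06 and -0.96 in place of -1.02, Zfp985 at -1.03 and -0.98 in place of -1.27, and Zfp988 at -0.87 and -0.71 in place of -1.03. The call of Zfp811 was lost without any 1 of the ES and HB libraries or HE1 replicate 2, with differences between -1.26 and -1.02 in place of -1.14. Set against ES in place of HB, HE1 had 14 members higher (8.33%, against 20.3% of all tested genes) and 48 lower (28.6%, against 20.4%). Outside the chromosome 4 cluster 14 of 151 were higher (9.27%) and 32 lower (21.2%), a share of falls near that of all tested genes. The median difference was -0.39 on the log2 scale, and -0.29 outside the chromosome 4 cluster, compared with -0.04 for all tested genes.

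The later steps held fewer calls still. From HE1 to HE2 none was higher (3.26% of all tested genes) and 7 were lower (4.17%, against 5.39%), but without HE1 replicate 1 there were 2 higher and 10 lower. HE2 and HP share HE1 as the reference, so these calls are given side by side without an overlap. From HE1 to HP none was higher (5.35%) and 7 were lower (4.17%, against 11.2%). Without HE1 replicate 1 there were 5 higher and 12 lower, and without HP replicate 1 there were 1 higher (Zfp984) and 2 lower. Between HE2 and HP, edgeR called 0 members and 0% of all tested genes in either direction, and 5 members had an unadjusted p under 0.05. limma-voom and DESeq2 also called 0 members there, with 4 and 6 at an unadjusted p under 0.05, while over all tested genes they called 62 and 301. Zfp980, Zfp981, Zfp978, Zfp600, Zfp658, Zfp618 and Zfp703 were the 7 that fell into HE2. The first 4 belong to the chromosome 4 cluster, and their HE1 values were higher in replicate 2 than in replicate 1, for example 1.05 and 3.44 CPM for Zfp980 and 0.883 and 4.1 for Zfp981, against 0.518 and 0.254 and 0.457 and 0.444 in HE2. The pluripotency genes moved with them, at 67 CPM in HE1 replicate 2, and their part in these falls was not tested. Without that library Zfp980 differed by -1.43 in place of -2.55 on the log2 scale and Zfp981 by -0.97 in place of -2.49. Zfp978 stood at -0.69 in place of -2.41 and Zfp600 at -1.23 in place of -1.55. Of the 3 outside the cluster, whose calls were lost too, Zfp618 stood at -1.73 in place of -1.68, Zfp658 at -1.75 in place of -1.73 and Zfp703 at -1.19 in place of -1.31. No member was called in HE2 against HE1 without HE1 replicate 2, and none without HE2 replicate 2. Over the 10 omissions of 1 library, Zfp978 and Zfp658 lost this call in 9 and Zfp981 in 7. The difference of Zfp658 was -1.06 without HE2 replicate 2 and -2.99 without HE2 replicate 1, and with total counts in place of TMM its call was lost as well.

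The calls of Zfp703 and Zfp618 in HP against HE1 held without that library. Zfp703 fell from 45.1 and 53 CPM in HE1 to 12.2 and 14.4 in HP, a difference of -1.89 on the log2 scale (SE 0.27, edgeR adjusted p = 0.00109), and without HE1 replicate 2 the difference was -1.76 (edgeR adjusted p = 0.00681). Zfp618, a partner of UHRF2 (chr4:62965573-63139708, plus strand), was at 9.37 and 8.69 CPM in the ES libraries, 26.3 and 26.8 at HB, 34.9 and 32.6 at HE1, 16.1 and 4.89 at HE2 and 4.24 and 6.64 at HP. It changed from HE1 to HP by -2.64 on the log2 scale (SE 0.44, edgeR adjusted p = 0.0023), and by -2.69 without HE1 replicate 2 (edgeR adjusted p = 0.00955). Its HE2 libraries were far apart, and without HE2 replicate 2 it alone was called lower in HP than in HE2, with a difference of -1.57 (edgeR adjusted p = 0.0134). The other falls into HP were those of Zfp980, Zfp600, Zfp987, Zfp791 and Zfp697, and none of these was called without HE1 replicate 2. On the log2 scale Zfp791 then stood at -1.84 in place of -1.73 and Zfp600 at -1.53 in place of -1.85, whereas Zfp980 stood at -0.75 in place of -1.87. Zfp987 stood at -1.36 in place of -1.81 and Zfp697 at -0.79 in place of -1.04. Zfp658 was at 6.48 and 6.34 CPM in the HE1 libraries, 3.05 and 0.794 at HE2 and 2.76 and 3.53 at HP.

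The 78 constant members covered a wide range of levels, with 52 at or above 9 CPM in all 5 stage means and 13 under it in all. Those with the smallest range were Zfp664, Zfp646, Zfp839, Zfp868, Zfp780b and Zfp644. Zfp664 (ENSMUSG00000079215, chr5:124862691-124902693, plus strand) was at 98.6 and 106 CPM in the ES libraries, 105 and 115 at HB, 109 and 102 at HE1, 99.8 and 96.7 at HE2 and 101 and 92 at HP, a range of stage means of 1.14-fold. Zfp644, a partner of the histone methyltransferases EHMT1 and EHMT2, lay between 136 and 174 CPM, a range of stage means of 1.18-fold. Zfp868 spanned 1.16-fold by stage means, but its HE1 libraries were at 45.1 and 24.5. Constant members with a known role outside retroviral repression included Zfp706, which holds back Klf4 in ES cells, with 122 and 121 CPM in the ES libraries, 105 and 127 at HB and 135 and 183 at HE2. Zfp622, a ribosome biogenesis factor, was at 71.3 and 71.7 CPM in the ES libraries, 89.96 and 90.7 at HB and 64.1 and 71.3 at HE1, Zfp652, a transcriptional repressor, at 195 and 198 CPM in the ES libraries, 203 and 227 at HB and 152 and 153 at HP, and Zfp687, a partner of ZMYND8, at 57.9 and 62.5 CPM in the ES libraries, 94.5 and 91.7 at HB and 92.6 and 96.9 at HP. Zfp638, which with the HUSH complex silences unintegrated retroviral DNA, was at 261 CPM in both libraries of ES, 171 and 159.9 at HB, 166 and 144 at HE1, 167 and 176 at HE2 and 157 and 186 at HP and so stayed within 1.69-fold, although both ES libraries lay above all later ones. Zfp827, which recruits the NuRD complex to telomeres, was constant by the rule with a range of 1.9-fold, while its HE1 libraries stood at 21.1 and 42.5 CPM.

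Zfp746 and Zfp704 changed without a single-stage pattern. Zfp746, known as PARIS, a repressor of PGC-1alpha and a target of parkin, was at 25.9 and 27.1 CPM in the ES libraries, 39.97 and 39.7 at HB, 63.7 and 52.1 at HE1, 60.3 and 64.4 at HE2 and 59.5 and 61.2 at HP, so that all later libraries lay above those of ES. Zfp704 dipped in HB, with 149 and 151 CPM in the ES libraries, 88 and 79.3 at HB, 189 and 137 at HE1, 173 and 214 at HE2 and 187 and 195 at HP. On the scale of mean CPM over the 5 stages per kb of exon, the highest level among members was that of Zfp706 with 26.3, followed by Zfp990 with 22.3, Zfp692 with 21.5, Zfp740 with 20.8 and Zfp710 with 19.5. Zfp641, Zfp966 and Zfp781 were lowest, at 0.0789, 0.181 and 0.208. Of these, Zfp966 and Zfp781 share 78.7% and 92.4% of their words with other genes. The level of Zfp990 came from ES, where it was at 258 and 260.3 CPM, whereas Zfp740 was at 142 and 144 in ES and 92.5 and 83 in HP.

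A feature that the choice by name did not use was the kind of protein. In the longest open reading frame of each member's coding transcript, 160 of 168 hold at least 1 finger-like match, with a median of 11 and up to 33 in Zfp619, and 116 hold a stretch like the KRAB A box within the first 300 residues. Zfp978, Zfp986 and Zfp993 of the chromosome 4 cluster have short frames without fingers in this annotation. Of the 33 members higher in ES than in each later stage, 29 hold a KRAB-like stretch (87.9%), compared with 51 of 78 constant members (65.4%). Of the 116 with the stretch, 31 were lower and 3 higher in HB than in ES, beside 17.3% and 11.5% of all tested genes, with a median difference of -0.30 on the log2 scale. Of the 52 without it, 4 were lower and 10 higher, with a median of 0.34. Outside the chromosome 4 cluster, 18 of 102 members with the stretch were lower in HB, a share near that of all tested genes, and 1 of 49 without it. The medians there were -0.22 and 0.36. Among the 14 members higher in HE1 than in ES, 3 hold the stretch, and among the 48 lower, 44 do. Promoter windows were found for 141 members and held a median of 10 CG dinucleotides, compared with 7 over all windows. The 22 windows of members higher in ES held a median of 6.5, the 13 of these outside the chromosome 4 cluster a median of 8, and the 71 of constant members 11. The pairs of copies and the shared promoters above mean that these genes are not independent of each other.

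The partners through which KRAB zinc fingers act were followed in a list of 23 genes for co-repressors, heterochromatin proteins and the imprint-keeping Zfp57 and Zfp445. Of these, 1 was higher and 4 were lower in HB than in ES, beside 11.5% and 17.3% of all tested genes, with a median difference of -0.30 on the log2 scale for the list and 0 for all tested genes. In HE1 against ES, 1 was higher and 9 were lower, beside 20.3% and 20.4% of all tested genes, with a median of -0.62 for the list and -0.04 for all. Without HE1 replicate 2 there were 1 higher and 4 lower, since Setdb1, Smarcad1, Uhrf1, Daxx and Suv39h2 then differed by less than 2-fold, at -0.98 to -0.88 on the log2 scale. Trim28, the co-repressor itself, was at 1689 and 1702 CPM in the ES libraries, 902 and 886 at HB, 570.3 and 424 at HE1, 629 and 825 at HE2 and 783 and 658 at HP. It differed in HE1 from ES by -1.77 on the log2 scale (SE 0.21, edgeR adjusted p = 6.03e-05). HE2 and HP stood above HE1 by 0.55 and 0.54 on the log2 scale, and neither difference was called. Setdb1, its histone methyltransferase, differed in HE1 from ES by -1.02 on the log2 scale (SE 0.16, edgeR adjusted p = 3.60e-04), and by -0.88 without HE1 replicate 2. Atf7ip, the partner of SETDB1, Smarcad1, a chromatin remodeler that works with TRIM28, Atrx, which deposits the histone variant H3.3 with DAXX, and Zfp57 were the 4 lower in HB. Zfp57 was at 388 and 390.1 CPM in the ES libraries, 105 and 85.6 at HB, 130.1 and 73.7 at HE1, 58.1 and 22.8 at HE2 and 20.9 and 34.7 at HP. The gene that rose was Suv39h1, another histone methyltransferase of heterochromatin, at 32.8 and 31.8 CPM in the ES libraries, 124 and 118 at HB, 179 and 182 at HE1, 135 and 146 at HE2 and 159.8 and 149 at HP, a rise into HB of 1.90 on the log2 scale (SE 0.13, edgeR adjusted p = 3.01e-06).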

How the data were processed

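Nuclear, ribosomal RNA-depleted, directional RNA-seq of 10 libraries (5 stages, 2 each) was used. The authors removed ribosomal reads with RiboDetector, trimmed reads with Trimmomatic, aligned them to mm10 with HISAT2 (2.2.1) and counted fragments over exons by strand with featureCounts (2.0.1, Ensembl GRCm38 release 102), without reads that map to several places. Fragments over several genes were counted for each. The deposited values are raw counts per gene and library. The deposited matrix holds a mean expression score per gene and stage, made by the authors with edgeR (3.40.2) and limma (3.17). It served to choose the members by name, and as an alternative scale.

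Counts were fitted with edgeR (4.0.16, in R 4.3.3) over all 10 libraries with stage as the factor, TMM scaling, filterByExpr (22596 genes left) and the quasi-likelihood F test. p-values were adjusted by Benjamini-Hochberg over all tested genes, and calls were made at 0.05 with a 2-fold minimum. Fold changes in the text are log2 with their standard error. Library totals of 24920434 to 58782055 set a floor of 3 counts at 0.0532 to 0.126 CPM. Intervals and floors cover counting error only.

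The members and the gene lists were chosen with earlier results of these data known. Genes were named by rule: per comparison the 4 largest rises and falls among called members without overlap between libraries and at least 1 CPM in the higher stage, the 3 clearest per stage pattern, the 5 highest and 3 lowest per kb, the 6 constant members of smallest range at 9 CPM or more, members of clusters, members of known role and those on the study's lists of genes with primed enhancers. Zfp787, Zfp800, Zfp691, Zfp791, Zfp940, Zfp941 and Zfp951 were named to complete a count after their values were seen.

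Clusters used the starts in the count tables. Promoters came from a RefSeq table (GRCm38.p6), in which 141 members have a window. The design foresaw a table of proteins. In its place the longest open reading frame of a GENCODE M21 transcript of the same build was translated with Biopython (1.88), and the KRAB-like motif was set after such sequences had been seen. No amino acids are printed. Scripts were tested on simulated data. Alternatives were limma-voom (3.58.1), DESeq2 (1.42.0), other scalings, filters and prior counts, a replicate block, each library left out, only the libraries compared, other fold thresholds, and other gaps for clusters.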

Additional observations from a re-analysis of the deposited data

How the results depend on the processing

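With 2 libraries per stage, leaving 1 out means that the remaining library is assumed to vary like the other stages. Over these omissions the called members numbered 41 to 48 for HB against ES, 11 to 20 for HE1 against HB, 0 to 12 for HE2 against HE1, 2 to 17 for HP against HE1 and 0 to 1 for HP against HE2. HE2 against HE1 had 0 without HE1 replicate 2 or HE2 replicate 2 and 12 (2 higher) without HE1 replicate 1. HP against HE1 had 2 without HE1 replicate 2, 17 (5 higher) without HE1 replicate 1 and 3 (1 higher) without HP replicate 1. Members higher in ES than in each later stage numbered 29 to 33, those lower 8 to 9, changed members 65 to 90 and constant members 70 to 84. Counts added after seeing the data gave 59 to 66 members and 5 to 11 cofactors for HE1 against ES, with 5 cofactors without HE1 replicate 2, and 5 cofactors for HB against ES under each omission. Of the 17 genes of the chromosome 4 cluster, 15 or 16 were lower in HB under each omission, tool, scaling, filter, block and fold threshold tried for that comparison, with 15 at 4-fold.

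For HE2 against HE1, limma-voom called 3, DESeq2 11, no filter on low counts 14 and a fit of only the 4 libraries compared 0. For HP against HE1, limma-voom called 4, no filter 12 and the 4 libraries alone 3. A change of at least 4-fold left 25 members for HB against ES, 1 for HE1 against HB, 3 for HE2 against HE1 and 1 for HP against HE1. A range under 1.5-fold left 30 constant members. An alternative chosen after seeing the data, without the chromosome 4 cluster, left 17 members higher in ES than in each later stage. The cause of these shifts was not tested, beyond the fewer libraries, genes or members that each setting holds by construction.

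Replicate numbers did not pair the libraries: deviations of same-numbered libraries correlated at -0.316 to 0.213 over 10 pairs of stages, with 2 of 10 over 0.1. With the replicate block the called members numbered 48 for HB against ES, 14 for HE1 against HB, 5 for HE2 against HE1, 6 for HP against HE1 and 0 for HP against HE2, with 33 higher in ES and 75 changed. Zfp978 and Zfp981 were then no longer called lower in HE2 than in HE1.

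Single genes were followed through 714 settings of 51 values, of which 657 kept direction and call, 49 kept direction and lost the call, and 8 changed sign. Those that changed sign were near 0 in HB against ES and not called. With total counts Zfp706 moved to 0.0081 and Zfp839 to 0.037, and with DESeq2 Zfp780b moved to -0.0057. Over the omissions of 1 library Zfp706 lay between -0.21 and 0.087, Zfp780b between -0.083 and 0.13 and Zfp839 between -0.15 and 0.095. Lost calls belonged to HE1 against HB, HE2 against HE1 and HP against HE1. The pluripotency genes were higher in HE1 replicate 2 than in HE1 replicate 1. Near-copies in the chromosome 4 cluster lose reads that map to several places. The levels of its genes with a large share of shared words, such as Zfp978, Zfp987 and Zfp600, are therefore uncertain. For Zfp990, Zfp985, Zfp982 and Zfp933 that share was 2.95% or less.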

Other observations

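Smaller clusters show how neighbours can part. In the cluster of 6 on chromosome 8 that holds Zfp964, from Zfp930 to Zfp866, 4 members were constant and 2 changed. Zfp930 was at 55.2 and 54.6 CPM in the ES libraries, 49.5 and 48.5 at HB, 24.1 and 23 at HE1, 23 and 31.1 at HE2 and 32.1 and 41.9 at HP, a change from HB to HE1 of -1.06 on the log2 scale (SE 0.18, edgeR adjusted p = 0.00195), and its HB and HE1 libraries did not overlap. Its neighbour Zfp869 was constant and stood at 29 and 28.7 CPM in the ES libraries, 52.5 and 50.1 at HB, 44.2 and 44.4 at HE1, 37.4 and 36.9 at HE2 and 38.6 and 41.9 at HP, with ES as its lowest stage. In the cluster of 8 at chr17:32765496-33307241, 6 members were constant and Zfp811 changed from HB to HE1 by -1.14 on the log2 scale (SE 0.37, edgeR adjusted p = 0.0357). It was at 5.75 and 5.82 CPM in the ES libraries, 9.36 and 8.39 at HB, 4.37 and 3.67 at HE1, 2.41 and 1.08 at HE2 and 1.87 and 2.45 at HP, so that no library of HE2 or HP reached those of HE1. Its call was lost without either ES library, either HB library or HE1 replicate 2.

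Zfp791 was low in HE2 and HP, and Zfp853 had its lowest mean in HE2. Zfp791 was at 3.3 and 3.04 CPM in the ES libraries, 2.12 and 2.96 at HB, 1.26 and 1.09 at HE1, 0.518 and 0.127 at HE2 and 0.297 and 0.413 at HP. It was called lower in HP than in HE1, by -1.73 on the log2 scale, and without HE1 replicate 2 the difference was -1.84 and no longer called. The call was lost in 8 of the 10 omissions of 1 library. Zfp853 was at 1.06 and 1.2 CPM in the ES libraries, 1.79 and 1.35 at HB, 1.05 and 1.45 at HE1, 0.609 and 0.0952 at HE2 and 0.388 and 1.18 at HP, and its HE2 libraries were further apart than ES and HB. The lower HE2 value is at the floor of 3 counts of that library, and the other lies between the 2 HP values.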
